A study of Mus musculus with 6 samples.

Results

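The genes of mitochondrial protein import and of the mitochondrial chaperones and proteases that receive imported proteins were taken by name from the deposited expression table, which covers 55401 genes. The name rule matched 47 genes, and 46 of them had a count above 0 in at least 1 library. Tomm20l had no count. Timm8a2 had 8 deposited counts in 1 library and none in the other libraries, so it was not tested, and the 45 remaining genes passed the filter on low counts.

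Most mitochondrial proteins are encoded in the nucleus, made in the cytosol and imported as unfolded precursors. The translocase of the outer membrane (TOM) receives them. From there they go to the sorting and assembly machinery of the outer membrane (SAM), to the oxidative folding pathway of the intermembrane space (MIA), or, with or without the help of small TIM chaperones, to the inner membrane translocases TIM22 and TIM23. In the matrix an Hsp70 motor pulls the precursor in, a peptidase removes the presequence, chaperones fold the protein, and proteases degrade what stays misfolded. Hepatocytes are rich in mitochondria and use this route for the enzymes of fat oxidation, the urea cycle and respiration.

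The values come from liver RNA of 6 male mice. In 3 of them (Alb-Cre Prdx1 fl/fl, called knockout), Cre recombinase driven by the albumin promoter acts on floxed alleles of Prdx1, which encodes the peroxide-reducing enzyme peroxiredoxin 1. The other 3 (Prdx1 fl/fl, called control) had the floxed alleles and no Cre. All 6 mice entered at 8 weeks of age and were fed MCD for 5 weeks. The abbreviation is not spelled out in the labels and commonly means a diet deficient in methionine and choline. The albumin promoter is active in hepatocytes, so loss in other liver cells is not implied by the genotype. An effect of the Cre transgene cannot be told apart from the loss of Prdx1, and no mouse received another diet. No litter or batch is given, so p-values measure the spread between these mice only.

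Prdx1 had 78.6, 111 and 75.4 CPM in the knockouts, against 644, 569.6 and 663 CPM in the controls. CPM are counts scaled to the same library total, here with TMM factors between libraries. The fitted difference was a log2 fold change of -2.82 ± 0.17 (SE; edgeR quasi-likelihood test, adjusted p = 4.4e-05). In an exact two-sided permutation test of the levels p was 0.1, the smallest that 3 against 3 libraries allow. Deposited counts totalled 58790874 to 78291273 in the knockouts and 63189210 to 67319086 in the controls.

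In the knockouts, 34 of the 45 tested genes were lower (edgeR adjusted p under 0.05), 1 was higher and 10 did not pass. That is 75.6% lower, where 18.0% of all 18931 tested genes were lower and 19.9% were higher. The median log2 fold change was -0.53 for the 45 genes, against 0.05 for all tested genes. The 34 lower genes averaged between 51.4% (Grpel1) and 84.1% (Tomm20) of the control level, with a median of 65.7%. The single higher gene was Tomm34, a cytosolic partner of the import pathway. CPM of the groups did not overlap for 38 genes with the knockouts lower and for 2 with the knockouts higher (Tomm34 and Mtx3), against 24.3% and 28.8% of all tested genes.

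These counts rest on the scaling between libraries. The TMM factors were 1.10 to 1.16 in the knockouts and 0.87 to 0.89 in the controls, and without them the median of all tested genes moved to 0.41. With library sizes alone 6 of the 45 genes were lower, against 6.6% of all genes, and 2 were higher, against 34.1%. The 6 were Grpel1, Grpel2, Hspd1, Timm23, Timm8a1 and Tomm70a, and the 2 were Tomm34 and Mtx3. With limma on the deposited FPKM (fragments scaled to gene length and library depth, pseudocount 0.5) 8 were lower, against 6.81% of all genes, the added ones being Clpp and Timm13. The same 2 were higher there, against 32.4% of all genes. Measured from the median of all genes, the median of the 45 was lower by nearly the same amount with or without TMM factors (a difference of -0.58 each) and by less in FPKM (-0.44). In each of the 3 scalings 41 of the 45 lay below the median of all genes. The median of the import genes thus lay below that of all genes in each scaling. Dropping the TMM factors moves every gene by nearly the same amount, so those 2 scalings could not differ in this. Without TMM factors a fall passed the test in 6 genes and in FPKM in 8.

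**Figure D1:**
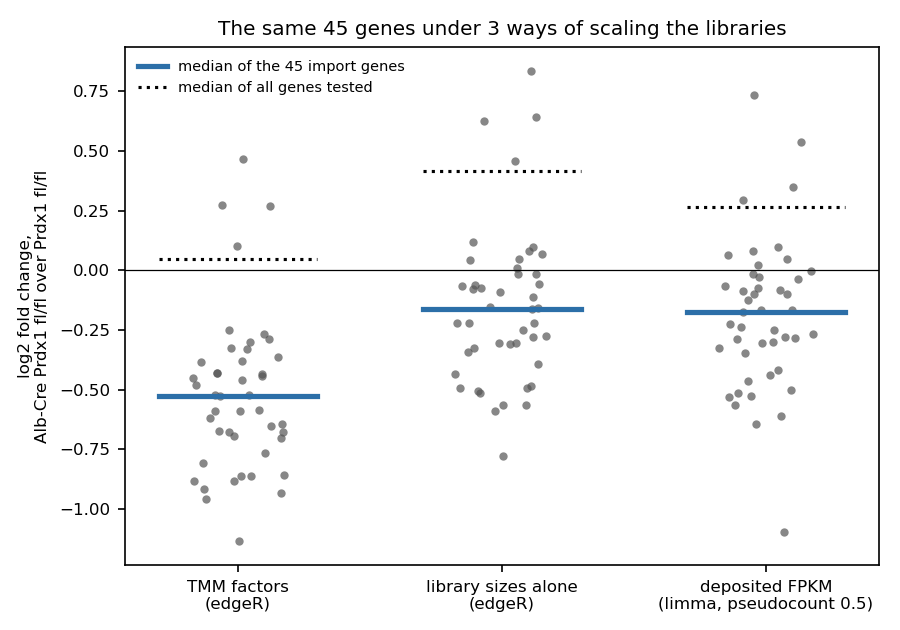
Log2 fold changes (knockout over control) of the 45 tested genes (grey points, spread sideways at random) under TMM factors, library sizes alone and the deposited FPKM, with their median (blue bar) and the median of all tested genes (dotted bar). The gene median lies below the all-gene median in each scaling, at -0.53 against 0.05, -0.16 against 0.41 and -0.18 against 0.26, and it lies nearer to 0 without TMM factors.

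**Figure D2:**
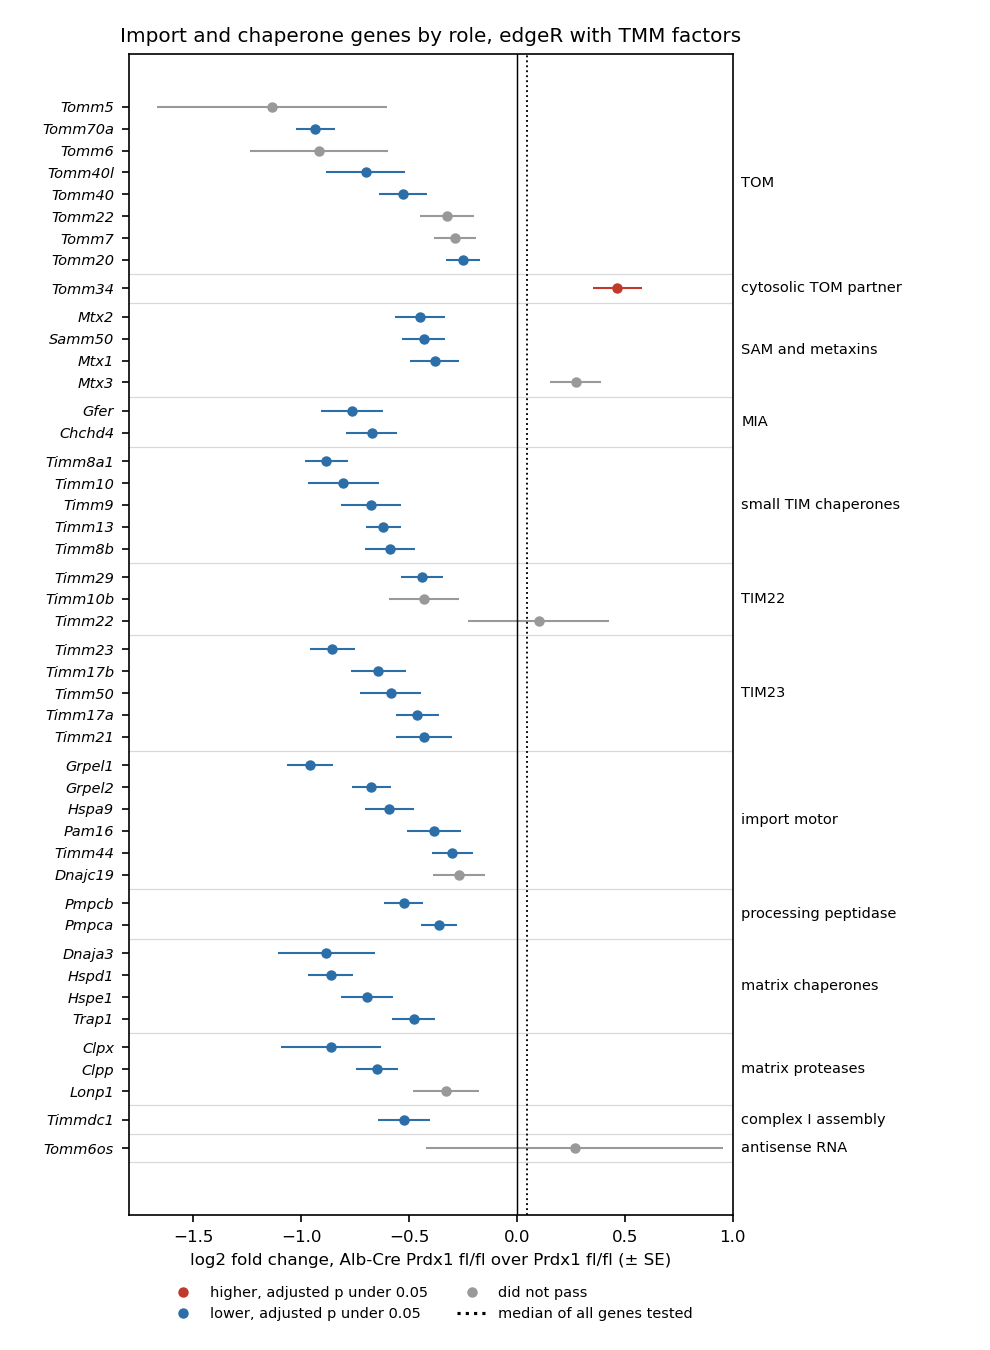
Log2 fold change (knockout over control, TMM factors; bars are ± 1 SE) of each tested gene, grouped by role in import. Blue points were lower, the red point (Tomm34) was higher, grey points did not pass, and the dotted line is the median of all tested genes. With library sizes alone 7 of the points left of 0 (Tomm20, Tomm22, Tomm7, Timm44, Dnajc19, Pmpca and Lonp1) lie right of it.

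The promoters of these genes were searched for 5 short motifs in the 250 bases before each RefSeq start (GRCm38.p6), on both strands. RefSeq gave a start for 41 of the 46 genes. The ETS motif CCGGAAG, the core bound by GABP, stood in 17 of the 41 (41.5%), against 7.83% of 27025 genes with a window. For each motif this background includes genes that were not tested in liver here, and a share among tested genes alone was not computed. A heat shock element, searched as the units GAA, TTC and GAA with any 2 bases between neighbours, stood in 3 of the 41 (7.32%; Hspd1, Hspe1 and Timm9), against 0.514% of genes. The matches of Hspd1 and Hspe1, for both motifs, are the same bases of a shared window and so count 1 stretch under 2 genes. CCAAT stood in 11 (26.8%), against 37.5% of genes. GCGCATGCG (NRF1) stood in 2 (4.88%; Clpx and Timm13), against 1.64% of genes, but its full palindrome, a letter longer and searched first, stood in none, against 0.877% of genes. AAGATGGCG (YY1) also stood in none, against 0.710% of genes. Of the genes with the ETS motif 16 were tested, with 13 lower, 1 higher and a median log2 fold change of -0.52. Of the matched genes without it 24 were tested, with 17 lower, none higher and a median of -0.56. Tomm34, the gene that was higher, holds the motif as well, and a match is no evidence of binding.

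Windows of 5 genes are printed: a shared promoter of the matrix chaperonin pair, 3 of the genes that kept their call in every setting, and the gene that was higher. Only windows with an ETS match were printed, so its presence in all 5 comes from the selection. Timm8a1, which also kept its call in every setting, holds no ETS match and is not shown. Capitals mark ETS matches and, in Hspe1, also an overlapping pair of heat shock element matches. The windows are Hspe1 at chr1:55087898-55088147 (+), Tomm70a at chr16:57121464-57121713 (+), Grpel1 at chr5:36464935-36465184 (+), Timm23 at chr14:32201892-32202141 (-) and 1 of the Tomm34 starts at chr2:164071170-164071419 (-), each 5′ to 3′ on the strand of its gene.
Hspe1: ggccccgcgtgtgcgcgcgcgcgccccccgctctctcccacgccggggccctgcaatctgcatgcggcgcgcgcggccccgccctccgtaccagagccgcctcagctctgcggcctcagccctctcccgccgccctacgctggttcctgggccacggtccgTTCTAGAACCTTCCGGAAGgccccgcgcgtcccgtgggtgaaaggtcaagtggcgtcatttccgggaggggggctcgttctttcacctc
Tomm70a: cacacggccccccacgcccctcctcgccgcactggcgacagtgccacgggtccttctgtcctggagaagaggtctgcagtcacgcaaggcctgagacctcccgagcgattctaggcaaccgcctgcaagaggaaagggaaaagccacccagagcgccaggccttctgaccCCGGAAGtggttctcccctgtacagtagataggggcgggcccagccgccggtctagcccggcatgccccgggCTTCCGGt
Grpel1: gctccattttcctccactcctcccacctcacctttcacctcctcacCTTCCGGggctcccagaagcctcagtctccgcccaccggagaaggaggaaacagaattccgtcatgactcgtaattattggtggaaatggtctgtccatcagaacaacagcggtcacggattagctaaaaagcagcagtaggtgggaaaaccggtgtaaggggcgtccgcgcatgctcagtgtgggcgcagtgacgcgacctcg
Timm23: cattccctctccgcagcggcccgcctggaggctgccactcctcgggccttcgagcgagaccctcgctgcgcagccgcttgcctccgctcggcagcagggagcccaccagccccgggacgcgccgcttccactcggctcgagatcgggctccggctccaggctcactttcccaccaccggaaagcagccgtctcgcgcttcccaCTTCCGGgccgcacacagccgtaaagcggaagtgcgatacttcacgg
Tomm34: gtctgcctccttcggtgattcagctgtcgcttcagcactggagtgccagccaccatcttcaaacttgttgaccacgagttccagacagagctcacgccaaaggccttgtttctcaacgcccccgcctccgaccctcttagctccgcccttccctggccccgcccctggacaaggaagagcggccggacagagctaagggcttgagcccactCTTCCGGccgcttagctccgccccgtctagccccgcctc
Hspd1 and Hspe1 lie head to head on chromosome 1, and 215 bases of the Hspe1 window are also in a window of Hspd1. In Hspe1 the heat shock element matches span bases -89 to -77 and -84 to -72 before the start. Tomm70a holds ETS matches at bases -80 to -74 and -8 to -2. Starts in RefSeq and in the deposited positions differ: Grpel1 begins at 36464998 in the latter, so most of its window lies inside the deposited gene. The windows of Hspe1, Tomm70a and Timm23 reach into it by fewer bases.

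Among the receptors of TOM, the carrier receptor and chaperone dock Tomm70a fell most. Tomm70a (chr16:57121703-57156705) had 106, 91.1 and 96.4 CPM in the knockouts, against 193, 178 and 191 CPM in the controls (log2 fold change -0.93 ± 0.09 SE, edgeR adjusted p = 0.000254). Tomm20, the presequence receptor, had 85.7, 79.6 and 79.4 CPM in the knockouts, against 99.2, 96.2 and 95.5 CPM in the controls. Neither gene's groups overlapped in CPM, though those of Tomm20 did in FPKM. The difference of Tomm20 was small. It passed by edgeR at -0.25 ± 0.08 (adjusted p = 0.0387), was lost whichever single library was left out (adjusted p = 0.0617 to 0.115) and was 0.12 with library sizes alone. Tomm22, the central receptor, had 49.6, 41.2 and 39.2 CPM in the knockouts, against 60.3, 53.8 and 48.7 CPM in the controls. Its groups overlapped through knockout 1 and it did not pass (-0.32 ± 0.13, adjusted p = 0.0785). Without knockout 1 it passed at an adjusted p of 0.0478, and with library sizes alone its sign turned (0.05).

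The channel genes of TOM were lower. Tomm40, which encodes the pore, had 34.5, 28.7 and 36.8 CPM in the knockouts, against 48.4, 49.1 and 46.7 CPM in the controls (-0.53 ± 0.11, edgeR adjusted p = 0.00764). Its paralog Tomm40l had 19.6, 19.4 and 27.4 CPM in the knockouts, against 35.5, 30.0 and 42.6 CPM in the controls (-0.70 ± 0.18, edgeR adjusted p = 0.0189). Replicate 3 was the highest in both groups for Tomm40l. Of the exon bases of Tomm40l, 64.3% are shared with Nr1i3 on the other strand. Nr1i3 averaged 133 ± 54 CPM in the knockouts and 197 ± 60 CPM in the controls (SD), well above Tomm40l. It ran the same way but did not pass (-0.57, edgeR adjusted p = 0.189). The kit marked strand by dUTP per the labels, but whether counting used strand is not given in the sources used here, so reads of the pair may be mixed. The Tomm40l call was lost without knockout 1, knockout 2, control 1 or control 3 (adjusted p = 0.0501 to 0.0693).

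The small TOM subunits Tomm5, Tomm6 and Tomm7, which stabilise the pore, did not pass. Tomm5 had 22.2, 3.92 and 20.7 CPM in the knockouts, against 38.0, 31.7 and 32.9 CPM in the controls (-1.14 ± 0.53, edgeR adjusted p = 0.136). Its groups did not overlap, and knockout 2 stood far below the other knockouts. Without knockout 2 the difference was -0.68, with an adjusted p of 0.0116. Tomm6 had 6.30, 7.24 and 15.3 CPM in the knockouts, against 20.4, 17.3 and 16.9 CPM in the controls (-0.92 ± 0.32, edgeR adjusted p = 0.0573). Here knockout 3 stood apart, and without it the difference was -1.42 (adjusted p = 0.00171). Tomm6 shares 76.0% of its exon bases with the same-strand gene model Gm21981, so its counts are uncertain. Tomm7 came nearest to the threshold (-0.29 ± 0.10, edgeR adjusted p = 0.0507), passed without control 2 (adjusted p = 0.0402) and turned to 0.08 with library sizes alone.

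Tomm34 encodes a cytosolic protein that binds Hsp70 and Hsp90 and accompanies precursors. It lies at chr2:164053540-164071169 and had 19.5, 20.5 and 17.1 CPM in the knockouts, against 13.8, 13.7 and 13.9 CPM in the controls (0.47 ± 0.11, edgeR adjusted p = 0.0152). The controls were nearly equal, and each knockout lay above them. The call was lost without knockout 1 or knockout 2 (adjusted p = 0.0562 to 0.0633). With library sizes alone the difference was 0.84 and in FPKM 0.73 on the log2 scale. Both scalings also raise the median of all genes (0.41 and 0.26, against 0.05 with TMM factors). They could therefore hardly have turned a positive difference.

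**Figure D3:**
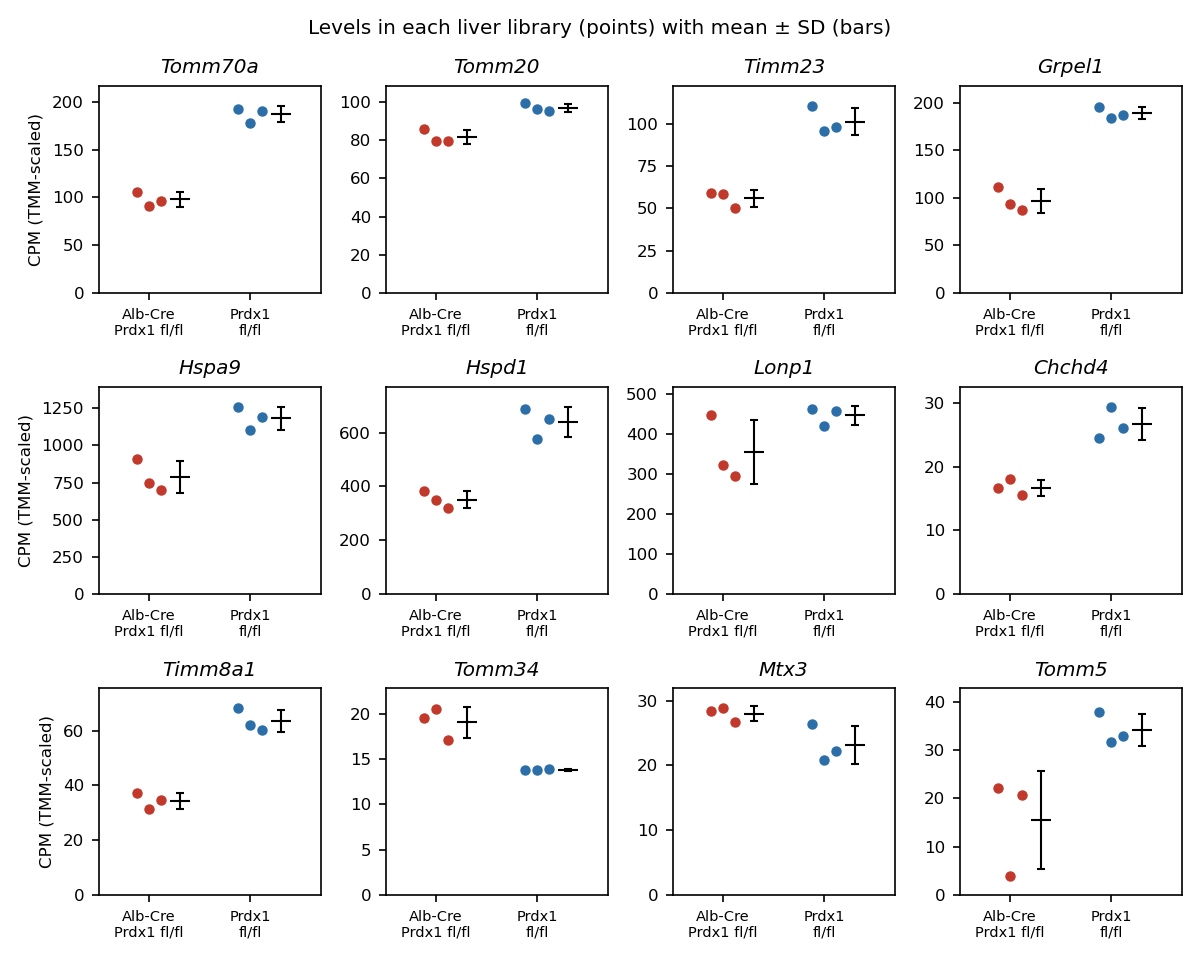
CPM (TMM-scaled, axes from 0) of 12 genes in each library, with the knockouts in red on the left, the controls in blue on the right, and mean ± SD beside them (n = 3 each). Most genes lie lower in the knockouts without overlap, Lonp1 overlaps through knockout 1, Tomm20 and Lonp1 turn slightly higher with library sizes alone, knockout 2 stands apart in Tomm5, and Tomm34 and Mtx3 lie higher.

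In the SAM complex, which inserts beta-barrel proteins, the core gene Samm50 and the metaxins Mtx1 and Mtx2 were lower, while Mtx3 ran the other way. Mtx1 had 25.8, 21.9 and 25.4 CPM in the knockouts, against 34.9, 29.4 and 30.9 CPM in the controls (-0.38 ± 0.11, edgeR adjusted p = 0.0321). Mtx2 had 36.6, 34.3 and 29.5 CPM in the knockouts, against 45.7, 41.7 and 49.8 CPM in the controls (-0.45 ± 0.12, edgeR adjusted p = 0.0181). Mtx3 had 28.3, 28.9 and 26.6 CPM in the knockouts, against 26.4, 20.9 and 22.2 CPM in the controls (0.27 ± 0.12, edgeR adjusted p = 0.108). Its groups touched nowhere, though the lowest knockout and the highest control were close. Mtx3 passed as higher without control 1 (adjusted p = 0.0456), with library sizes alone (0.64) and in FPKM (0.54). Library sizes alone and FPKM also raise the median of all genes (0.41 and 0.26, against 0.05 with TMM factors). Samm50 differed by -0.43 ± 0.10 (edgeR adjusted p = 0.0104). With library sizes alone Samm50 (-0.07), Mtx1 (-0.02) and Mtx2 (-0.08) did not pass. The Mtx1 call was lost in 5 of 6 runs that left out 1 library, all but the run without control 2 (adjusted p = 0.0571 to 0.11). That of Mtx2 was lost in 4, without knockout 2, knockout 3, control 1 or control 3 (adjusted p = 0.0502 to 0.0593). Of the exon bases of Mtx1, 21.2% lie opposite those of Gm43737.

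Both genes of the MIA disulfide relay were lower. Chchd4, the oxidoreductase that traps cysteine-rich precursors, had 16.6, 18.0 and 15.5 CPM in the knockouts, against 24.6, 29.4 and 26.1 CPM in the controls (-0.67 ± 0.12, edgeR adjusted p = 0.00328). Gfer, the sulfhydryl oxidase that reoxidises it, averaged 27.2 ± 5.3 CPM in the knockouts and 46.2 ± 1.7 CPM in the controls (SD), a difference of -0.76 ± 0.14. Neither gene overlapped between groups, in CPM or in FPKM. Neither passed with library sizes alone, where both stayed below 0 (-0.30 for Chchd4 and -0.39 for Gfer).

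All 5 tested small TIM genes, chaperones that carry hydrophobic precursors across the intermembrane space, were lower. Their log2 fold changes stayed below 0 with library sizes alone, but only Timm8a1 still passed there. Timm8a1 had 37.3, 31.4 and 34.7 CPM in the knockouts, against 68.2, 62.1 and 60.3 CPM in the controls (-0.88 ± 0.10, edgeR adjusted p = 0.00056). Timm8b had 22.4, 26.2 and 23.3 CPM in the knockouts, against 40.6, 33.7 and 33.9 CPM in the controls (-0.59 ± 0.12, edgeR adjusted p = 0.00602). Timm13, the partner of the Timm8 proteins, had 44.0, 41.6 and 40.9 CPM in the knockouts, against 62.9, 65.1 and 66.1 CPM in the controls (-0.62 ± 0.08, edgeR adjusted p = 0.000952). In none of the 3 did the groups overlap in CPM, but those of Timm8b overlapped in FPKM. Of the exon bases of Timm8b, 15.6% lie opposite Nkapd1. In FPKM, Timm8a1 made up 34.4 ± 3.8% of the sum of Timm8a1 and Timm8b in the knockouts and 39.2 ± 1.1% in the controls (SD), without overlap. The other chaperone pair of this space moved likewise. Timm9 had 11.1, 13.2 and 9.85 CPM in the knockouts, against 18.4, 19.1 and 17.0 CPM in the controls (-0.68 ± 0.14, edgeR adjusted p = 0.00743). Timm10 had 13.4, 10.4 and 11.0 CPM in the knockouts, against 17.7, 24.1 and 18.9 CPM in the controls (-0.81 ± 0.16, edgeR adjusted p = 0.00683).

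TIM22 inserts metabolite carriers into the inner membrane, and its genes moved less uniformly. Timm29 was lower (-0.44 ± 0.10, edgeR adjusted p = 0.00992). Timm10b, which docks the small TIM chaperones, had 14.9, 13.5 and 12.3 CPM in the knockouts, against 16.5, 16.0 and 22.3 CPM in the controls. It did not pass (-0.43 ± 0.16, edgeR adjusted p = 0.0715), although the groups did not overlap in CPM (they did in FPKM). Timm22, the channel, had 5.20, 5.13 and 11.3 CPM in the knockouts, against 6.12, 7.96 and 6.09 CPM in the controls (0.10 ± 0.33, edgeR adjusted p = 0.843). Knockout 3 alone lay above all controls, and without it the difference was -0.37 (adjusted p = 0.228).

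All 5 genes of TIM23, the translocase for presequence proteins, were lower, and all stayed below 0 with library sizes alone. Only Timm23 still passed there. Timm23 (chr14:32180162-32201898), the channel gene, had 59.3, 58.5 and 50.1 CPM in the knockouts, against 110.4, 95.6 and 98.1 CPM in the controls (-0.86 ± 0.10, edgeR adjusted p = 0.000712). Timm17a had 32.3, 31.0 and 28.7 CPM in the knockouts, against 45.7, 41.8 and 39.3 CPM in the controls (-0.46 ± 0.10, edgeR adjusted p = 0.00824). Timm17b had 26.9, 22.0 and 26.4 CPM in the knockouts, against 34.3, 39.7 and 43.6 CPM in the controls (-0.64 ± 0.13, edgeR adjusted p = 0.00611). These channel partners are alternative subunits, and the share of Timm17a in their summed FPKM overlapped between groups, at 28.5 ± 2.7% in the knockouts and 26.1 ± 3.8% in the controls (SD). Timm50, the receptor of the complex, had 28.2, 22.1 and 25.0 CPM in the knockouts, against 42.5, 32.1 and 38.4 CPM in the controls (-0.59 ± 0.14, edgeR adjusted p = 0.0131). Replicate 2 was the lowest within each group, and without knockout 2 the adjusted p was 0.051. Timm21 differed by -0.43 ± 0.13 (edgeR adjusted p = 0.0333), lost without knockout 1, knockout 3, control 1 or control 2 (adjusted p = 0.0857 to 0.117).

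In the import motor 5 of 6 genes were lower, led by the nucleotide exchange factor Grpel1, the gene with the largest fall among those that passed. Grpel1 (chr5:36464998-36474080) had 111, 93.4 and 86.6 CPM in the knockouts, against 196, 184 and 187 CPM in the controls (-0.96 ± 0.11, edgeR adjusted p = 0.000508). Grpel2, its paralog, had 48.9, 47.8 and 47.6 CPM in the knockouts, against 74.3, 71.8 and 84.3 CPM in the controls (-0.68 ± 0.09, edgeR adjusted p = 0.00111). Both kept their call in each of the 15 alternative settings. Of the exon bases of Grpel1, 11.6% lie opposite Tada2b, which was lower as well (-0.81). Hspa9, the matrix Hsp70, had 908, 745 and 702 CPM in the knockouts, against 1257, 1103 and 1190 CPM in the controls (-0.59 ± 0.11, edgeR adjusted p = 0.00545). The groups of Hspa9 did not overlap in CPM but did in FPKM. Timm44, which anchors Hspa9 at the channel, had 31.4, 34.1 and 31.8 CPM in the knockouts, against 43.0, 39.6 and 37.2 CPM in the controls. Its small difference (-0.30 ± 0.09, edgeR adjusted p = 0.0389) was lost in 5 of 6 runs without 1 library, all but the run without control 3 (adjusted p = 0.067 to 0.133), and was 0.07 with library sizes alone. Pam16, a J-like regulator of the motor, passed narrowly (-0.39 ± 0.13, edgeR adjusted p = 0.0443) and was lost without any 1 library (adjusted p = 0.0622 to 0.142). Glis2, which lies opposite 18.7% of the exon bases of Pam16, was higher (3.15). Dnajc19, the J protein of the motor, did not pass (-0.27 ± 0.12, edgeR adjusted p = 0.123), and its sign turned with library sizes alone (0.10).

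Both subunits of the matrix processing peptidase, which cleaves presequences, were lower. Pmpca had 72.4, 75.2 and 67.2 CPM in the knockouts, against 93.2, 88.9 and 94.1 CPM in the controls (-0.36 ± 0.08, edgeR adjusted p = 0.0111). Pmpcb, the catalytic subunit, had 67.5, 68.2 and 70.1 CPM in the knockouts, against 104, 89.2 and 103 CPM in the controls (-0.52 ± 0.09, edgeR adjusted p = 0.00315). The groups did not overlap in CPM in either gene, though they did in FPKM in both. With library sizes alone Pmpca was at 0.01 and Pmpcb at -0.16. Of the exon bases of Pmpca, 20.4% lie opposite Inpp5e.

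The 4 matrix chaperone genes were lower, and all stayed below 0 with library sizes alone, where only Hspd1 still passed. Hspd1, the Hsp60 chaperonin, had 382, 351 and 319 CPM in the knockouts, against 687, 578 and 649 CPM in the controls (-0.86 ± 0.10, edgeR adjusted p = 0.00068). Hspe1, its co-chaperonin, had 128, 103 and 105 CPM in the knockouts, against 204, 169.9 and 171 CPM in the controls (-0.69 ± 0.12, edgeR adjusted p = 0.00324). This head-to-head pair fell together, with Hspd1 at 63.6 ± 1.6% of their summed FPKM in the knockouts and 66.2 ± 1.4% in the controls (SD), overlapping. Dnaja3, an Hsp40 partner of Hspa9, had 115, 87.7 and 67.5 CPM in the knockouts, against 185, 189.5 and 124 CPM in the controls (-0.88 ± 0.23, edgeR adjusted p = 0.0177). Replicate 3 was the lowest within each group, and the call was lost without knockout 2, control 1 or control 2 (adjusted p = 0.0567 to 0.0613). Trap1, the mitochondrial Hsp90, differed by -0.48 ± 0.10 (edgeR adjusted p = 0.00696).

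Among the matrix proteases both parts of the ClpXP protease were lower and Lonp1 did not pass. Clpp, the proteolytic chamber, had 34.0, 29.3 and 30.0 CPM in the knockouts, against 46.9, 47.7 and 51.8 CPM in the controls (-0.65 ± 0.10, edgeR adjusted p = 0.00173). Clpx, the unfoldase, had 129.8, 115 and 99.6 CPM in the knockouts, against 256, 237 and 135 CPM in the controls (-0.86 ± 0.23, edgeR adjusted p = 0.0211). Control 3 lay close to the knockouts for Clpx, without overlap in CPM but with overlap in FPKM. The call was lost without knockout 2, knockout 3, control 1 or control 2 (adjusted p = 0.0657 to 0.0728), and without control 3 the adjusted p was 0.00169. Lonp1, the main matrix protease for oxidised proteins, had 447, 323 and 296 CPM in the knockouts, against 462, 420.2 and 458 CPM in the controls (-0.33 ± 0.15, edgeR adjusted p = 0.132). Knockout 1 lay within the controls, and without it Lonp1 passed (-0.52, adjusted p = 0.0117), while with library sizes alone its sign turned (0.04). Timmdc1, an assembly factor of complex I named for its likeness to the TIM genes, differed by -0.52 ± 0.12 (edgeR adjusted p = 0.0116). Tomm6os, an RNA antisense to Tomm6, had 1.61 ± 0.15 CPM in the knockouts and 1.34 ± 1.05 CPM in the controls (SD) and did not pass (0.27 ± 0.69, edgeR adjusted p = 0.799).

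Ratios of a pair of genes within 1 library do not depend on the scaling. The 6 pairs given here were chosen after the values were seen, a gene with a large difference set against one with a small or opposite difference, so their ratios are a description with no test. Of 12 paralog or partner pairs set by name, the shares in summed FPKM overlapped between the groups in 10. The count ratio of Tomm70a to Tomm20 was 1.20 ± 0.05 in the knockouts and 1.93 ± 0.08 in the controls (SD). Grpel1 to Timm44 stood at 3.00 ± 0.47 in the knockouts and 4.74 ± 0.24 in the controls, and Timm23 to Timm44 at 1.73 ± 0.16 in the knockouts and 2.54 ± 0.11 in the controls. Hspd1 to Lonp1 stood at 1.01 ± 0.13 in the knockouts and 1.43 ± 0.06 in the controls. Each knockout lay below each control in these 4 ratios. The order was the other way in Tomm34 to Tomm40, at 0.582 ± 0.125 in the knockouts and 0.287 ± 0.010 in the controls, and Mtx3 to Mtx2, at 0.839 ± 0.065 in the knockouts and 0.508 ± 0.066 in the controls.

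**Figure D4:**
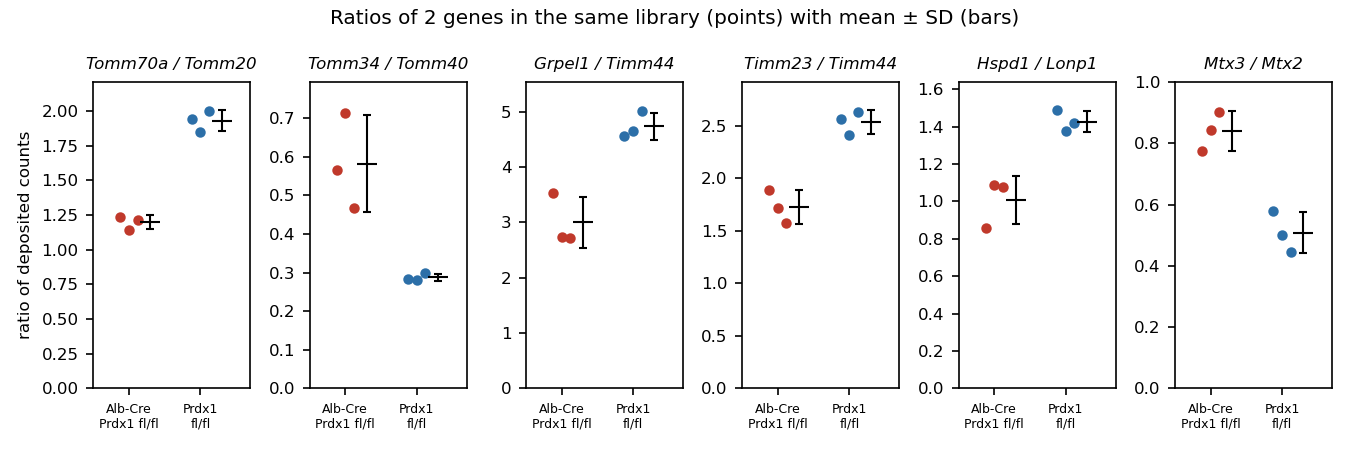
Ratio of the deposited counts of 2 genes in each library, with the knockouts in red on the left, the controls in blue on the right, and mean ± SD beside them (n = 3 each). The pairs were chosen after the values were seen, and the groups do not overlap in any panel: Tomm70a/Tomm20, Grpel1/Timm44, Timm23/Timm44 and Hspd1/Lonp1 are lower in the knockouts, Tomm34/Tomm40 and Mtx3/Mtx2 higher.

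On the FPKM scale, which divides by gene length and so allows genes to be set side by side, the order of the genes was led by Hspa9 in both groups. Hspa9 averaged 187 ± 29.6 FPKM in the knockouts and 221 ± 17.1 FPKM in the controls (SD), followed by Hspd1 with 136 ± 15.8 FPKM in the knockouts and 194 ± 19.3 FPKM in the controls. Lonp1 and Hspe1 came next and changed places. Lonp1 averaged 83.4 ± 20.5 FPKM in the knockouts and 82.2 ± 5.2 FPKM in the controls. Hspe1 averaged 78.1 ± 11.0 FPKM in the knockouts and 99.2 ± 11.4 FPKM in the controls, so within the knockouts these neighbours do not differ beyond their spread. The lowest tested protein-coding gene was Timm22, with 2.29 ± 1.05 FPKM in the knockouts and 1.69 ± 0.25 FPKM in the controls. FPKM of the groups did not overlap in 15 of the 45 tested genes with the knockouts lower and in 2 with the knockouts higher, against 10.3% and 45.0% of all tested genes.

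Other genes of the pathway, in 6 lists, were lower or did not pass with TMM factors, and none was higher. Of all tested genes 18.0% were lower and 19.9% higher. With library sizes alone 6.6% of all genes were lower and 34.1% higher. Among insertases, cristae organisers and prohibitins 10 of 18 were lower (median log2 fold change -0.47), against 4 lower and 2 higher with library sizes alone. The 3 with the smallest p were Dnajc11 (-0.83), Mtch2 (-0.60), an outer membrane insertase, and Chchd3 (-0.68), a MICOS subunit. Among other mitochondrial proteases and peptidases 9 of 12 were lower (median -0.68; 5 with library sizes alone), with Lactb (-0.92), Immp2l (-1.18), a subunit of the inner membrane peptidase, and Afg3l2 (-0.72), a subunit of the m-AAA protease. Of the regulators of mitochondrial stress and biogenesis 11 of 17 were lower (median -0.51; 5 with library sizes alone), with the deacetylase Sirt3 (-0.85) and the transcription factors Atf5 (-0.97) and Cebpb (-1.05). Atf4 (-0.96) and Ddit3 (-1.42), named here after their values were seen, were lower too.

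Of the cytosolic chaperones that keep precursors unfolded 10 of 14 were lower (median -0.59; 3 with library sizes alone). The leading ones were Dnaja1, with 172, 157 and 161 CPM in the knockouts against 364, 360.3 and 378 CPM in the controls (-1.17), Dnajb1 (-1.06) and Hsp90aa1 (-0.89). Tomm34 binds products of this list, and none of the 14 was higher in any of these scalings. In the list for surveillance of stalled import 4 of 7 were lower (median -0.30), with Marchf5 (-0.80), Vcp (-0.60) and Mul1 (-0.77). With library sizes alone 1 was lower and 1 higher (median 0.07). Pink1 did not pass with TMM factors (-0.06, edgeR adjusted p = 0.674) and was higher with library sizes alone (0.31, edgeR adjusted p = 0.0326). In that scaling the median of all genes was 0.41, above Pink1, and 34.1% of all genes were higher.

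Genes used here as a gauge of mitochondrial abundance were lower as well. Of 13 such genes 11 were lower (median -0.59; 6 with library sizes alone), and Cycs (-1.10), Uqcrc2 (-0.94) and Cs (-1.03) led them. Their summed level was 3131 to 3229 CPM in the knockouts and 4595 to 4929 CPM in the controls, and that of the 46 import genes was 3047 to 3636 CPM in the knockouts and 4783 to 5303 CPM in the controls. In bulk liver RNA, fewer hepatocytes and less of these RNAs per hepatocyte cannot be told apart. Of 14 hepatocyte markers 11 were lower (median -0.79; 9 with library sizes alone), with a summed level of 59716 to 75203 CPM in the knockouts and 102919 to 125468 CPM in the controls. Alb made up most of it, at 39517, 39997 and 50395 CPM in the knockouts and 66373, 86363 and 74992 CPM in the controls.

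Markers of other liver cell types differed in direction from list to list. Of all tested genes, the background for each cell type count, 19.9% were higher and 18.0% lower. With library sizes alone these shares were 34.1% and 6.6%. All 10 cholangiocyte markers were higher (median 3.83), with a summed level of 1164 to 1352 CPM in the knockouts and 87.6 to 99.9 CPM in the controls. Most of that sum was Spp1, at 878, 1036 and 1025 CPM in the knockouts and 60.5, 44.1 and 53.2 CPM in the controls. Of 10 stellate cell and fibroblast markers 9 were higher (median 1.60; 2171 to 2530 CPM in the knockouts and 769 to 832 CPM in the controls). All 9 macrophage markers were higher (median 1.25; 2902 to 3116 CPM in the knockouts and 1174 to 1373 CPM in the controls). Sinusoidal endothelial markers were mixed, with 1 higher and 2 lower of 7, and 2 higher and 1 lower with library sizes alone (368 to 428 CPM in the knockouts and 448 to 479 CPM in the controls). T and NK cell markers summed to 9.71 to 10.4 CPM in the knockouts and 3.43 to 5.27 CPM in the controls, with 3 of 7 higher. B cell markers summed to 1.63 to 2.07 CPM in the knockouts and 2.58 to 4.60 CPM in the controls, with 2 of 5 lower. Neutrophil markers summed to 33.7 to 41.2 CPM in the knockouts and 15.8 to 19.5 CPM in the controls, with 3 of 5 higher. Csf3r made up most of this sum, at 24.9, 24.1 and 29.9 CPM in the knockouts and 10.8, 9.07 and 9.48 CPM in the controls. Ngp, also called higher, was near the floor, with 11, 13 and 12 deposited counts in the knockouts and none in the controls. Retnlg ran the other way (-0.74) and did not pass. Of the erythroid markers 1 of 3 tested was lower, and 1 lower and 1 higher with library sizes alone (77.7 to 114 CPM in the knockouts and 129 to 133 CPM in the controls). The part of these cell type markers and of mitochondrial abundance in the fall of the import genes was not tested.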

How the data were processed

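Liver poly(A) RNA of 6 mice was sequenced as read pairs, with unique molecular identifiers and dUTP strand marking per the labels' protocols. The authors deposited 1 table that gives each gene an FPKM (fragments scaled to gene length and library depth) and an estimated count in each library. The submitters' processing notes name StringTie 1.3.4d, HISAT2 2.0.4, edgeR, DESeq2, cutadapt 1.9 and UMI-tools in no stated order, and the build mm9. Gene positions in the table are nevertheless those of GRCm38: of 55141 identifiers found in GENCODE M21, 94.2% had the same position. Column names in the table use AlbCRE or wt with a number per the file headers, and wt was taken as Prdx1 fl/fl because no other genotype is left.

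The deposited counts are whole, yet the value 4 is listed for 765 to 854 genes per library, the value 3 for 280 to 320 and the value 5 for 148 to 201. A read pair was thus worth about 4 counts, so they were treated as estimated counts and no counting intervals are given. The deposited FPKM is 0.0001 where the count is 0.

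The fit used edgeR 4.0.16 under R 4.3.3: filterByExpr (minimum count 10, minimum total 15), TMM factors, genotype as the only term, the two-sided quasi-likelihood test, and Benjamini-Hochberg adjustment over all 18931 tested genes (threshold 0.05). Values after ± are SE for log2 fold changes and SD for levels, with 3 libraries per group. Replicates of a group differed in every pair by more than counting noise. Alternatives were DESeq2 1.42.0, RLE factors, library sizes alone, no filter, counts divided by 4, limma 3.58.1 on log2(FPKM + 0.5), with 0.1 and 1 as other pseudocounts and a minimum mean FPKM of 0.1, a replicate block, and leaving out each library.

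The members, the gene lists and the tests were chosen with earlier results of these data known. Values per library are given for Prdx1, the 8 largest falls past the threshold, the gene that was higher, a fixed core and paralog or partner pairs. In each pathway list the 3 genes with the smallest p are named, and Pink1, Tomm5, Tomm6, Timm22 and the genes that share exons were named after their values were seen.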

Additional observations from a re-analysis of the deposited data

How the results depend on the processing

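Counts of calls moved with the scaling. Without scaling factors (library sizes alone) the totals were 6459 higher and 1249 lower genes, with 2 import genes higher and 6 lower. With limma on FPKM 6248, 6241 and 6212 genes were higher and 1313, 1318 and 1309 lower at pseudocounts of 0.5, 0.1 and 1, and of the import genes 2 were higher and 8 lower at each. Leaving out 1 library gave 2892 to 3645 genes higher and 2641 to 3104 lower, and 25 to 30 import genes lower and 0 to 2 higher. The lowest number of higher import genes came without knockout 1 or knockout 2 and the highest without control 1. Between 29 and 37 import genes were lower with DESeq2, RLE factors, no filter or counts divided by 4. Prdx1 kept its direction and call in all 15 alternatives. With library sizes alone signs turned for Tomm20 (0.12), Dnajc19 (0.098), Tomm7 (0.079), Timm44 (0.069), Tomm22 (0.047), Lonp1 (0.041) and Pmpca (0.0074). In FPKM at pseudocounts of 0.5, 0.1 and 1 they turned for Tomm20 (0.096, 0.098 and 0.093), Dnajc19 (0.079, 0.083 and 0.073), Tomm7 (0.062, 0.063 and 0.061), Timm44 (0.048, 0.051 and 0.046) and Tomm22 (0.0228, 0.0231 and 0.0224). Leaving out 1 library gave -0.37 to 0.29 for Timm22, with the turn without knockout 3, and -0.24 to 0.92 for Tomm6os, with the turn without control 2. None of these turned values passed. The cause of the shift between scalings was not tested. Same-numbered libraries deviated together only weakly (correlations of 0.016, 0.031 and 0.035), so the numbers were not taken as pairs, although each library correlated best with its own number. With a replicate block 3269 genes were higher and 3207 lower, with 32 import genes lower and 1 higher. Timm44, Pam16 and Tomm20 were no longer past the threshold and Tomm22 was. With 3 libraries per group the spread limited what passed: Tomm20 passed at -0.25, and Tomm5 did not at -1.14.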
